A study of Mus musculus with 2 samples.

Results

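Kinesins are motor proteins that use ATP to walk along microtubules or to take their ends apart. One branch of the family builds the mitotic spindle, moves chromosomes and completes cell division, and its transcripts are known to be most abundant in G2 and mitosis. Another branch carries vesicles, organelles and ciliary cargo in cells at any stage of the cycle, and several of its members are best known from neurons. A further set works in cilia or trims microtubules. The kinesin genes were taken as all rows of the deposited table whose symbol is Kif with a number and an optional letter, or Kifc with a number, which gave 41 of 21937 genes. Of these, 13 were listed as mitotic, 17 as transport and 11 as other kinesins. A total of 40 of the 41 had reads, and Kif2b, a mitotic depolymerase known mainly from testis in mouse, was at 0 in every library.

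The series compared mouse embryonic stem (ES) cells treated for 16 h with 500 nM ICRF-193 and ES cells given the solvent DMSO for the same time. The compound ICRF-193 blocks topoisomerase II without trapping it in DNA breaks, and the comparison asks what this inhibition does to transcription. All cells were wild type, of strain 129Sv-C57Bl/6, and grown without feeder cells; the labels do not name the line or say whether it is 1 clone. Each group is 1 deposited sample that averages 3 replicates, and whole reads per library were worked back from the digits of the 2 group means. In each group the library with the largest size factor is called A, the next B and the smallest C; these letters do not pair replicates across groups, and libraries A of both groups are set together below only because both stand apart. The labels do not say that replicates were separate cultures, so p-values measure the spread between these libraries, which may be technical. Total reads lay between 29503083 and 34216000 per ICRF-193 library and between 33594723 and 47456606 per DMSO library. Values below are normalised reads (reads divided by the size factor of the library), and "rose" or "fell" is used only for an adjusted p under 0.05 in the DESeq test of the authors' deposited table.

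All 7 ES-cell markers examined were present, with deposited means between 492 (Nanog) and 32352 (Pou5f1) normalised reads in ICRF-193 and between 702 (Nanog) and 42678 (Pou5f1) in DMSO. Each was lower in ICRF-193, and Zfp42 fell. Libraries A stood apart in both groups: 7 fibroblast markers summed to 19608 in ICRF-193 library A against 2966 and 2321 in B and C, and to 17192 in DMSO library A against 1709 and 1675 in B and C. Col1a1, Col1a2 and Col3a1 carried this sum (Col1a1 had 15180 in ICRF-193 library A and 12908 in DMSO library A), while Thy1 was lower in library A than in B and C of both groups (log2 ratio -0.27 in ICRF-193 and -0.68 in DMSO). Lum was at or near 0 in all libraries. Among ES-cell markers with reads worked back in every library, Nanog was also higher in library A (log2 ratio 1.58 in ICRF-193 and 1.10 in DMSO). Zfp42 was higher as well (0.31 and 0.43), Utf1 was lower (-0.53 and -0.77), and Dppa5a differed in sign (-0.27 and 0.07). The part of any of these markers in the kinesin levels was not tested. Transport kinesins had a median log2 ratio of library A to the mean of B and C of 0.48 in ICRF-193 and 0.60 in DMSO, while the mitotic ones had 0.08 and 0.17 and all genes with reads -0.05 and 0.01. Calls with libraries A left out or modelled are therefore given for the kinesins.

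The core promoters of 6 members are shown first, because they cover the kinesin that rose among the mitotic ones (Kif18b), the 4 with the most negative log2 fold change (Kif11, Kif14, Kif22 and Kif18a), and the transport kinesin that rose (Kif1a). Genes expressed in G2 and mitosis often carry CCAAT boxes, bound by the factor NF-Y, and a cell cycle homology region (CHR) near the start of transcription. Each line gives 100 bases before and 20 after the RefSeq transcription start (GRCm38.p6), 5′ to 3′ on the coding strand, with the CCAAT box (ATTGG where it is read on the other strand) and the CHR in capitals. The CHR was searched as TTTGAA, seen where it lies on the other strand as TTCAAA, and in its other form as TTTAAA. The windows are chr11:102925105-102925224 on the minus strand for Kif18b, chr19:37376282-37376401 on the plus strand for Kif11, chr1:136467748-136467867 on the plus strand for Kif14, chr7:127042401-127042520 on the minus strand for Kif22, chr2:109280638-109280757 on the plus strand for Kif18a, and chr1:93101855-93101974 on the minus strand for Kif1a, for the first of its listed starts.
Kif18b: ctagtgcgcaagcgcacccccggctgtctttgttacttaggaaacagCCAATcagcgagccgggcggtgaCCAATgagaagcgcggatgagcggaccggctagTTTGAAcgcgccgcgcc
Kif11: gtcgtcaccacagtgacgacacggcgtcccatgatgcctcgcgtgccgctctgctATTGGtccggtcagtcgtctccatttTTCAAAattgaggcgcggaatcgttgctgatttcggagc
Kif14: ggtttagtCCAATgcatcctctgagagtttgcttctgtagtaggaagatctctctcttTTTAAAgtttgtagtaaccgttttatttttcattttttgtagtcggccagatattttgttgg
Kif22: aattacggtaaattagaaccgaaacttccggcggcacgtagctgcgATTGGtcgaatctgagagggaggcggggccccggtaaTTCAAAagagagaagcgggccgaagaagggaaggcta
Kif18a: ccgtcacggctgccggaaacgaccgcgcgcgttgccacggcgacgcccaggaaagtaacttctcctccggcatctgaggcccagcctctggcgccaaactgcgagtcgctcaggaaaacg
Kif1a: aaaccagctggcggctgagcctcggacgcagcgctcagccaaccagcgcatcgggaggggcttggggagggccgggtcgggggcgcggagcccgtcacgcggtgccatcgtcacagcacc

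Promoters of 300 bases (250 before and 50 after the start) were matched for 32 of the 41 members. Among the mitotic kinesins Kif20a was not matched, while Kif2b, which had no reads, was, and it holds CCAAT and no CHR. A CHR, in either of these forms and on either strand, was present in 10 of 12 mitotic kinesins (83.3%), in 1 of 11 transport kinesins (9.09%) and in 2 of 9 others (22.2%), against 30.6% of 27025 genes with a promoter (a gene with several listed starts counts if any holds it). CCAAT on either strand was present in 8 of 12 mitotic (66.7%), 3 of 11 transport (27.3%) and 4 of 9 other kinesins (44.4%), against 41.1% of all genes. In the windows printed no CCAAT match overlaps a CHR match. Kif18b holds a pair of CCAAT boxes, starting 53 and 30 bases before the start, and a TTTGAA from base 4 after it. Kif11, Kif14 and Kif22 hold the same kinds of match, with TTCAAA 19 bases before the start in Kif11 and 17 in Kif22 and TTTAAA 42 before it in Kif14, and Kif18a holds neither motif in its 300 bases. Kif1a has TTTGAA in the window of another listed start, not in the one printed. A match is a description of letters, not of binding.

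The classes differed in level in both groups. Divided by exonic length (GENCODE M21, 40 members matched), the median was 940 normalised reads per kb in ICRF-193 and 884 in DMSO for the 13 mitotic kinesins (Kif2b at 0 included), 280.3 and 259 for the 17 transport kinesins, and 24.4 and 14.1 for 10 others. The highest was Kif20a, which carries the chromosomal passenger complex to the central spindle, at 2396 per kb in ICRF-193 and 2645 in DMSO. Next in ICRF-193 came Kif18b at 1725 per kb, against 884 in DMSO, and next in DMSO came Kif22 at 1739 per kb, against 1262 in ICRF-193. Among transport kinesins Kif5b, the widely expressed conventional kinesin heavy chain, was highest, at 1081 per kb in ICRF-193 and 1334 in DMSO, and Kif17 lowest, at 12.1 and 5.62.

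After ICRF-193, 3 kinesin genes rose and none fell. The mitotic depolymerase Kif18b rose 1.95-fold, the neuronal vesicle motor Kif1a 1.71-fold, and Kif19a, which limits the length of motile cilia, 2.51-fold. The same test called 5.97% of 18759 genes higher and 1.26% lower in the authors' deposited table, so 3 of 40 is near the background. At an unadjusted p under 0.05, 7 kinesins were higher (background 11.5%) and 2 lower (background 5.38%). The kinesins called by limma-voom on the recovered reads were 7 higher (background 9.84%) and 1 lower (background 5.88%). Once libraries A were given a term of their own (the split term) they were 11 higher (background 27.2%) and 12 lower (background 32.4%), and without both libraries A 12 higher (background 24.2%) and 10 lower (background 29.6%). Libraries A were grouped because they stood apart in these same data, and the grouping pairs no replicates. Adjusted p-values with the split term or without libraries A may therefore be too small, and below they describe those settings only. The libraries of the groups did not overlap in 7 members that were higher (background 18.8%) and 7 that were lower (background 18.7%), of 39 that passed the filter on low counts. In bulk RNA, fewer cells of a type or stage and less RNA per cell cannot be told apart.

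**Figure D1:**
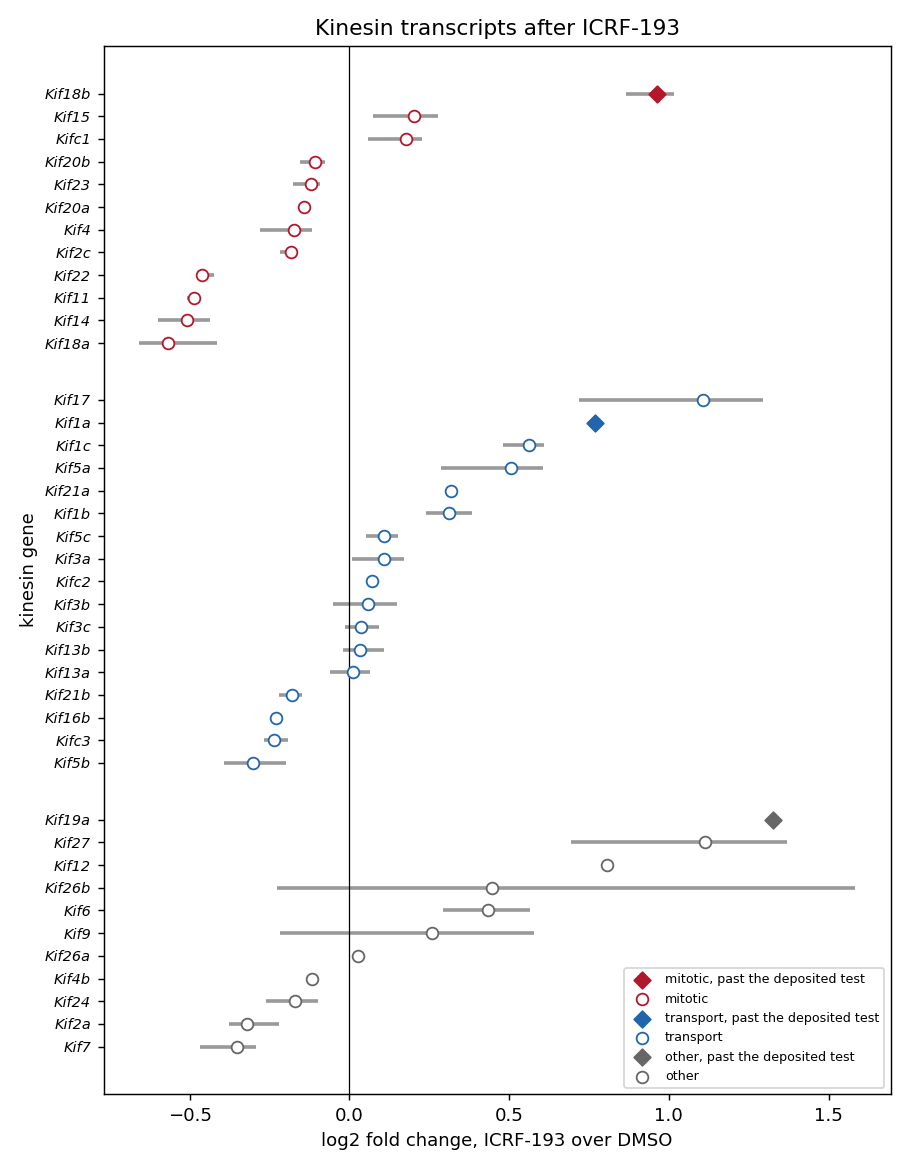
Log2 fold change of normalised reads, ICRF-193 over DMSO, for the 40 kinesin genes with reads, grouped by class. Filled diamonds passed the deposited test, open circles did not, and grey bars span the values from libraries A alone and from libraries B and C alone; Kif18b stands 0.96 to the right of 0 while 9 of the 12 mitotic kinesins lie to the left (7 with total-read scaling in limma-voom).

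Among mitotic kinesins only Kif18b passed the deposited test. Kif18b protein binds growing microtubule plus ends and shortens the astral microtubules of the spindle. It had 6232, 6193 and 6059 normalised reads in ICRF-193 libraries A, B and C, against 3418, 3027 and 3031 in DMSO libraries A, B and C. The groups did not overlap, and each ICRF-193 library stood far above the highest DMSO one. The means were 6161 ± 90.7 in ICRF-193 and 3159 ± 225 in DMSO (SD, n = 3 each), a log2 fold change of 0.96 in the authors' deposited table (adjusted p = 0.00256). The limma-voom standard error was 0.09 (adjusted p = 0.00271), and Kif18b passed whichever library was left out (limma-voom adjusted p from 0.00304 to 0.0286).

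Its relative Kif18a, which dampens chromosome oscillations at the metaphase plate, lay on the other side. It had 2141, 1581 and 1761 normalised reads in ICRF-193 libraries A, B and C, against 2857, 2554 and 2718 in DMSO. All ICRF-193 libraries were below all DMSO ones, at means of 1828 ± 286 and 2709 ± 152 (SD, n = 3 each). The deposited log2 fold change was -0.57 and did not pass (adjusted p = 0.163 in DESeq), while limma-voom called it lower (SE 0.13, adjusted p = 0.0336), as did limma-voom with the split term (adjusted p = 5.51e-05). That limma-voom call was lost when the libraries were scaled by total reads (adjusted p = 0.0601), and without DMSO library A (adjusted p = 0.0502) or any B or C library (adjusted p from 0.101 to 0.135).

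A further 3 mitotic kinesins had lower means of like size, with wide spreads. Kif11, the motor that pushes spindle poles apart, had 8450, 6231 and 6355 normalised reads in ICRF-193 libraries A, B and C, against 12010, 9017 and 8444 in DMSO. Kif14, needed with citron kinase for cytokinesis, had 2578, 1864 and 1733 in ICRF-193, against 3906, 2536 and 2335 in DMSO. Kif22, a chromokinesin that pushes chromosome arms outward, had 5253, 6347 and 6966 in ICRF-193, against 7049, 9293 and 9240 in DMSO. Library A was the highest of its group for Kif11 and Kif14 and the lowest for Kif22. The ICRF-193 libraries overlapped DMSO for Kif11 and Kif14 and were all below DMSO for Kif22. The deposited log2 fold changes were -0.49 for Kif11, -0.51 for Kif14 and -0.46 for Kif22, and none passed (DESeq adjusted p = 0.239, 0.437 and 0.338). Limma-voom did not call them either (adjusted p = 0.12, 0.214 and 0.101), but with the split term it called all 3 lower (adjusted p = 9.92e-06, 6.59e-05 and 2.30e-05). Within libraries A alone the log2 fold changes were -0.51, -0.60 and -0.42, and within B and C -0.47, -0.44 and -0.48.

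None of the kinesins of the central spindle and the centromere passed the deposited test. Kif20a had 11334, 9707 and 10144 normalised reads in ICRF-193 libraries A, B and C, against 12348, 11199 and 10878 in DMSO, with overlap. Kif23, a subunit of the centralspindlin complex, had 6468, 6659 and 6107 in ICRF-193, against 7309, 6793 and 6819 in DMSO. Kif2c, the centromeric depolymerase MCAK, had 4964, 5089 and 5504 in ICRF-193, against 5768, 5883 and 6000 in DMSO. For Kif23 and Kif2c every ICRF-193 library was below every DMSO library, by a small step. The deposited log2 fold changes were -0.14 for Kif20a (DESeq adjusted p = 0.896), -0.12 for Kif23 (adjusted p = 0.931) and -0.18 for Kif2c (adjusted p = 0.848). Limma-voom called Kif20a (adjusted p = 0.015) and Kif2c (adjusted p = 0.00842) lower once the split term was in, and not Kif23 (adjusted p = 0.0565); Kif23 changed sign when libraries were scaled by total reads. A stretch of 1271 exonic bases of Kif20a overlaps Cdc23 on the opposite strand, and without the strand of the kit their shared reads cannot be assigned.

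The other mitotic members did not pass the deposited test. Kif4, a chromokinesin that works with Prc1, had 3113, 3058 and 2876 normalised reads in ICRF-193 libraries A, B and C, against 3776, 3319 and 3116 in DMSO, a deposited log2 fold change of -0.17 with no overlap. Limma-voom called it lower with the split term (adjusted p = 0.0242) and not without libraries A (adjusted p = 0.172). Kif20b, a cytokinesis motor, was at -0.11 with overlap. Kif15, which backs up Kif11, was at 5812 ± 221 normalised reads in ICRF-193 and 5052 ± 626 in DMSO, and Kifc1, a minus-end motor that focuses spindle poles, at 3739 ± 480 and 3308 ± 251 (SD, n = 3 each). Their deposited log2 fold changes were 0.20 and 0.18 (DESeq adjusted p = 0.844 and 0.853), and both were called higher with the split term (limma-voom adjusted p = 0.00788 and 0.0255). Kifc1 has a closely related copy, Kifc5b, outside the name rule, with 1686 ± 331 in ICRF-193 and 1151 ± 106 in DMSO, and reads may be divided between them. Of the 12 mitotic kinesins with reads 9 had a negative log2 fold change and 3 a positive one, and 7 and 5 in limma-voom with total-read scaling, where Kif20b and Kif23 turned positive. Of all genes with an overall mean of at least 100, the level of all 12, 60.5% had a negative deposited log2 fold change. In limma-voom with total-read scaling, 5302 of 11726 genes at that level were negative.

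**Figure D2:**
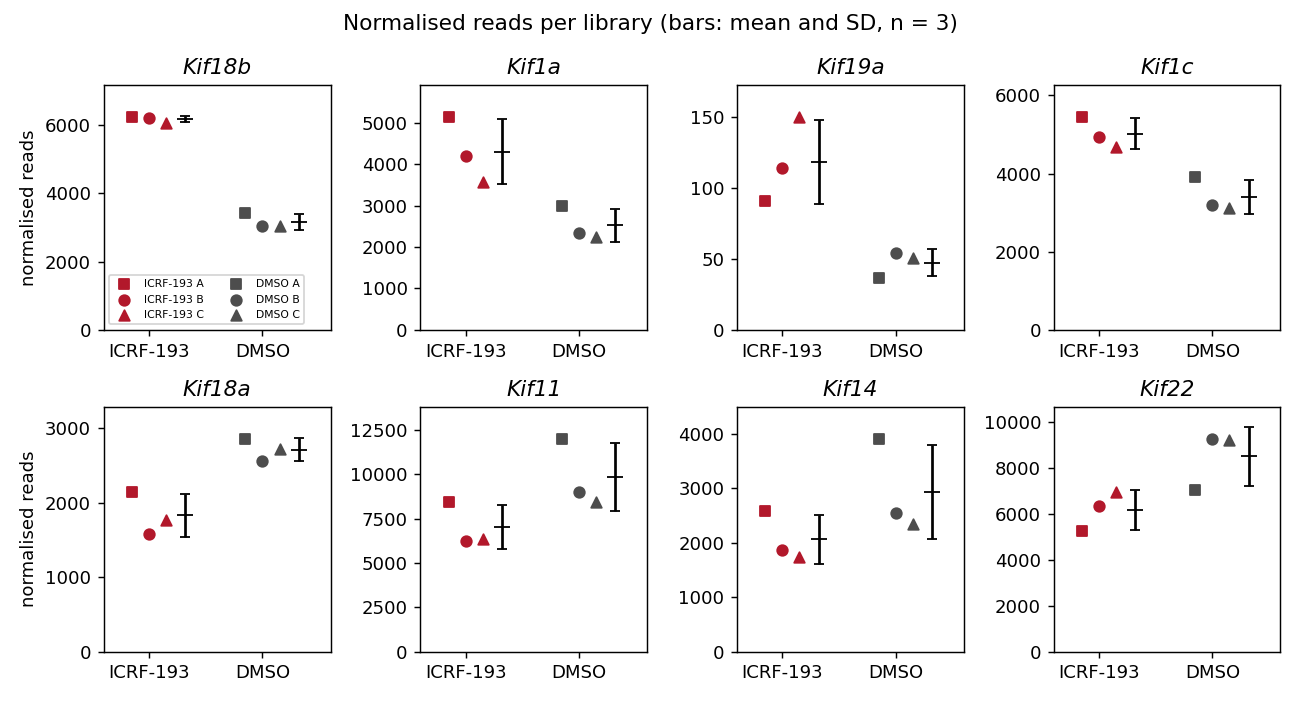
Normalised reads in each library (squares, circles and triangles for A, B and C) for 8 kinesins, with the mean and SD of the 3 libraries beside them. Kif18b has ICRF-193 values of at least 6059 and DMSO values of at most 3418, and ICRF-193 library A lies above DMSO library C in Kif11 and above DMSO libraries B and C in Kif14.

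Of the 17 transport kinesins 1 rose (background 5.97%) and 0 fell (background 1.26%), and 13 had a positive deposited log2 fold change. Among all genes with an overall mean of at least 100, the level of 16 of the 17, 4683 of 11868 were positive. Total-read scaling in limma-voom gave 6424 of 11726 genes positive at that level, and again 13 of the 17 transport kinesins. Kif1a, the motor of synaptic vesicle precursors, had 5139, 4193 and 3579 normalised reads in ICRF-193 libraries A, B and C, against 2987, 2341 and 2241 in DMSO. The groups did not overlap, and means were 4304 ± 786 in ICRF-193 and 2523 ± 405 in DMSO (SD, n = 3 each). Kif1a rose by a log2 fold change of 0.77 in the authors' deposited table (adjusted p = 0.0299), with a limma-voom standard error of 0.18 (adjusted p = 0.0333). In limma-voom the call was lost without ICRF-193 library A (adjusted p = 0.0625), B (0.121) or C (0.0611), or DMSO library B (0.129) or C (0.112), and the log2 fold change stayed between 0.63 and 0.90.

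A further 3 transport kinesins were called higher by limma-voom without passing the deposited test. Kif1c, a vesicle motor of many cell types, had 5452, 4948 and 4672 normalised reads in ICRF-193 libraries A, B and C, against 3907, 3194 and 3108 in DMSO. Kif5a, the neuronal form of the conventional kinesin heavy chain, had 1078, 1292 and 1328 in ICRF-193, against 884, 836 and 883 in DMSO. Kif17, a motor of dendrites and cilia, had 47.2, 65.3 and 53.9 in ICRF-193, against 28.7, 24.8 and 23.8 in DMSO. In each of these the groups did not overlap. The deposited log2 fold changes were 0.56, 0.51 and 1.11 (DESeq adjusted p = 0.187, 0.272 and 0.0762), and limma-voom called all 3 higher (adjusted p = 0.0283, 0.038 and 0.0246). Each of these calls was lost when any one B or C library was left out (adjusted p from 0.0856 to 0.155), and that of Kif1c also without ICRF-193 library A (adjusted p = 0.0659).

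Kif1b and Kif21a were called higher in limma-voom with the split term or without libraries A, and in neither the deposited test nor limma-voom without that term. Kif1b, which moves mitochondria and vesicle precursors, had 7187, 3919 and 3701 normalised reads in ICRF-193 libraries A, B and C, against 6084, 3074 and 2768 in DMSO. Library A was far above B and C in both groups, and the deposited log2 fold change of 0.31 had an adjusted p of 0.931 in DESeq and of 0.000713 in limma-voom with the split term. Kif21a, which restrains microtubule growth at the cell cortex, was at 951 ± 79.9 in ICRF-193 and 762 ± 90.5 in DMSO (SD, n = 3 each; deposited log2 fold change 0.32, DESeq adjusted p = 0.588; limma-voom with the split term, adjusted p = 0.00501). Kif5b, Kifc3 and Kif16b were called lower with the split term, at deposited log2 fold changes of -0.30, -0.24 and -0.23; Kif16b, a motor of early endosomes, was not called without libraries A (limma-voom adjusted p = 0.132). For Kif5b the libraries ran 12431, 6616 and 6835 in ICRF-193 and 14258, 8862 and 8813 in DMSO.

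The remaining transport kinesins lay between -0.18 (Kif21b) and 0.11 (Kif5c) in deposited log2 fold change, and none was called in limma-voom with or without the split term. They included Kif3a and Kif3b, the motor pair of intraflagellar transport, at means of 1495 and 1616 normalised reads in ICRF-193 and 1388 and 1554 in DMSO. Among members with an overall mean of at least 100, Kif13b stood out furthest upward in library A, with 2381, 967 and 903 in ICRF-193 libraries A, B and C, against 2417, 912 and 826 in DMSO. Kifc2, a minus-end motor, ran the opposite way, with 692, 1322 and 1191 in ICRF-193, against 666, 1196 and 1191 in DMSO. Each of these 8 genes changed sign when some single library was left out.

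Of the neuron markers examined beside these genes, 6 of 7 were found and 0 passed the deposited test (1, Elavl4, was at an unadjusted p under 0.05, lower; limma-voom called it lower as well). They summed to between 13035 and 16514 normalised reads in ICRF-193 libraries and between 16027 and 20789 in DMSO libraries, mostly from Stmn2 and Tubb3. Snap25 and Syt1 had means of 38.3 and 54.8 in ICRF-193 and 30.9 and 45.4 in DMSO. The sum of all 6 markers found was lower in ICRF-193 than in DMSO both between libraries A and between libraries B and C. That came from Stmn2, with means of 10324 in ICRF-193 and 14281 in DMSO, while Tubb3 had 4607 and 4222 and 4 of the 6 markers had a positive deposited log2 fold change. The part of these markers in the levels of Kif1a and Kif5a was not tested.

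The other kinesins hold the ciliary members. Kif19a had 91.3, 114 and 150.4 normalised reads in ICRF-193 libraries A, B and C, against 36.6, 54.6 and 50.8 in DMSO. The groups did not overlap, and the rise rested on 91, 110 and 134 reads in ICRF-193 and 46, 55 and 47 in DMSO. Means were 119 ± 29.8 in ICRF-193 and 47.3 ± 9.46 in DMSO (SD, n = 3 each), a log2 fold change of 1.33 in the authors' deposited table (adjusted p = 0.00171), with a limma-voom standard error of 0.27 (adjusted p = 0.0237). In limma-voom the call was lost without ICRF-193 library B (adjusted p = 0.0961) or C (0.0852), or DMSO library B (0.0768) or C (0.0731). Kif27, a relative of Kif7 linked to motile cilia in mouse, had 50.2, 61.2 and 42.6 in ICRF-193, against 31.0, 21.8 and 18.4 in DMSO. Its deposited log2 fold change of 1.11 did not pass in DESeq (adjusted p = 0.0946), and limma-voom called it (adjusted p = 0.0427), though not with genes of low counts kept in (adjusted p = 0.0527). That call was also lost without ICRF-193 library A (adjusted p = 0.0817), B (0.152) or C (0.0943), or DMSO library B (0.149) or C (0.131).

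Markers of cells with motile cilia moved unevenly beside these genes. Of 6 markers 5 were found. Foxj1, the master regulator of motile cilia, and Dnaic1, a dynein of the axoneme, rose. Rsph1 of the radial spoke fell, and Tekt1 and Ccdc39 did not pass the DESeq test of the authors' deposited table. The fall of Rsph1 was near the threshold (deposited adjusted p = 0.048). Limma-voom with total-read or upper-quartile scaling called 0 of the 5 markers lower. Foxj1 was at 429 ± 90.5 normalised reads in ICRF-193 and 102 ± 23.3 in DMSO (SD, n = 3 each; deposited adjusted p = 2.57e-09), and the 5 markers summed to between 846 and 1176 in ICRF-193 libraries and between 516 and 599 in DMSO libraries. Their part in the levels of Kif19a and Kif27 was not tested. Kif9 and Kif6, also of motile cilia and sperm tails, had means of 84.8 and 24.3 in ICRF-193 and 71.0 and 17.9 in DMSO, with overlap.

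Kif7 and Kif2a were the lower ones in this class. Kif7, which organises the tip of the primary cilium in Hedgehog signalling, had 807, 879 and 761 normalised reads in ICRF-193 libraries A, B and C, against 1116, 1053 and 957 in DMSO. Kif2a, a depolymerase of spindle poles and neurites, had 4231, 3703 and 3518 in ICRF-193, against 4926, 4836 and 4539 in DMSO. The groups did not overlap for either. Their deposited log2 fold changes were -0.35 and -0.32 (DESeq adjusted p = 0.528 and 0.586), and limma-voom called them lower with the split term (adjusted p = 0.00312 and 5.73e-04) but not without it (adjusted p = 0.0878 and 0.0802). Kif24, a depolymerase of the mother centriole, had 836, 591 and 543 normalised reads in ICRF-193 libraries A, B and C, against 1002, 616 and 598 in DMSO, at means of 657 ± 157 and 739 ± 228 (SD, n = 3 each; deposited log2 fold change -0.17, DESeq adjusted p = 0.906). Kif26a, an atypical kinesin of enteric neurons, had 779, 614 and 622 in ICRF-193, against 773, 640 and 566 in DMSO, at means of 671 ± 93.1 and 660 ± 105 (SD, n = 3 each; deposited log2 fold change 0.03, DESeq adjusted p = 1). Both overlapped, and neither was called by limma-voom with or without the split term or libraries A. Kif26b, active in kidney development, shows how far library A can carry a mean: it had 107, 63.2 and 53.9 in ICRF-193 libraries A, B and C, against 126, 21.8 and 17.3 in DMSO, a log2 fold change of -0.23 between libraries A and of 1.58 between libraries B and C. Limma-voom called it higher without libraries A (adjusted p = 0.00116), and the deposited adjusted p was 0.988. Kif4b, listed by RefSeq as the pseudogene of Kif4 with which it can share reads, averaged 15.2 in ICRF-193 and 16.6 in DMSO, and Kif12, known from kidney and bile ducts, 2.52 and 1.44.

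The median deposited log2 fold change was -0.16 over the 12 mitotic kinesins, 0.07 over the 17 transport kinesins and 0.26 over the 11 others, against -0.00099 over all genes with reads. Level matters for this background: genes with an overall mean of at least 100 had a median of -0.10, and at that level all 12 mitotic kinesins had a median of -0.16, 16 transport kinesins of 0.06 and 4 others of -0.24. Total-read scaling moved that background to 0.04, with the mitotic median at -0.02 and the transport median at 0.20. Within libraries A the mitotic, transport and other medians were -0.20, 0.05 and -0.16, and within libraries B and C -0.14, 0.15 and 0.57, so the sign for the others turned. Leaving out 1 library also turned the transport median, to -0.07 without ICRF-193 library A and -0.02 without DMSO library C, and it was 0.34 without DMSO library A, while the mitotic median stayed between -0.20 and -0.09.

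Summed over each class, mitotic kinesins came to 69751, 64278 and 64517 normalised reads in ICRF-193 libraries A, B and C, against 78360, 69956 and 68496 in DMSO. Transport kinesins came to 52302, 36713 and 34390 in ICRF-193, against 49835, 33449 and 31914 in DMSO. The ratio of the mitotic to the transport sum was 1.33, 1.75 and 1.88 in ICRF-193 and 1.57, 2.09 and 2.15 in DMSO. It was lower in ICRF-193 both between libraries A and between libraries B and C. The groups overlapped over all 3 libraries but not over B and C alone, a weak separation with so few libraries. Abundant members weigh most in these sums: Kif1a and Kif1c had higher means in ICRF-193, and Kif5b, the most abundant transport kinesin, a lower one. With 3 libraries a group, no test over the members was made.

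**Figure D3:**
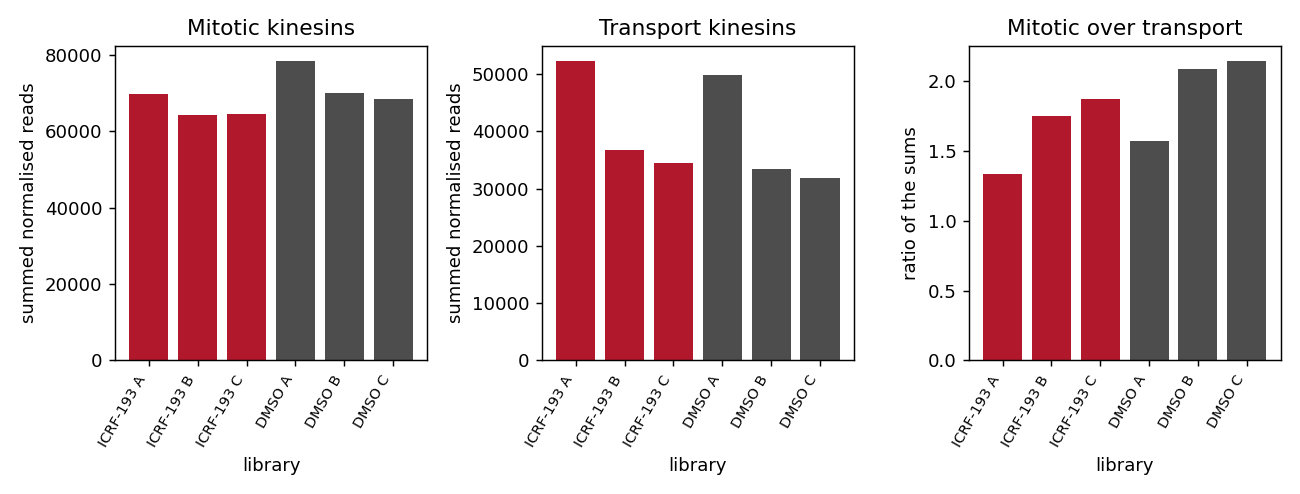
Summed normalised reads of the mitotic kinesins and of the transport kinesins, and the ratio of the sums, in each library. Libraries A have the largest transport sums, 52302 in ICRF-193 and 49835 in DMSO, and the smallest ratios of their groups, 1.33 and 1.57.

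Among the kinesins, the ratio of library A to the others was higher for genes of greater exonic length (the union of their annotated exons). Over the 32 kinesins with an exonic length and an overall mean of at least 100, the log2 ratio of library A to the mean of B and C ran between -0.86 and 1.35 in ICRF-193 and between -0.84 and 1.48 in DMSO. Across these genes, which share the same libraries and are not independent, Pearson's r with log2 exonic length was 0.648 and Spearman's rho 0.662 in ICRF-193, and 0.638 and 0.595 in DMSO. Median exonic length was 5514 bases for mitotic and 7276 for transport kinesins.

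**Figure D4:**
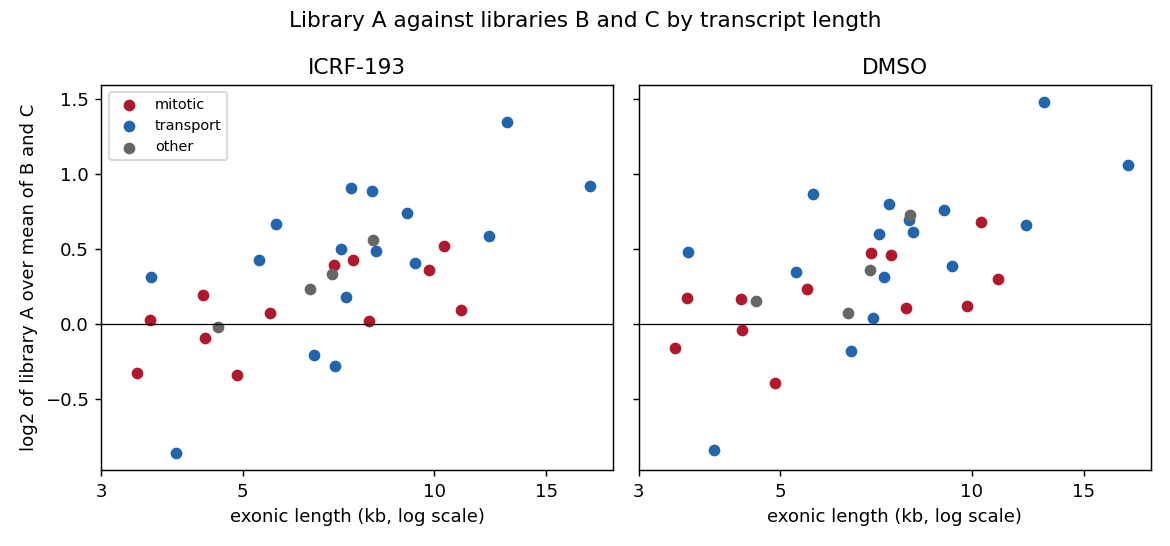
Log2 of library A over the mean of libraries B and C against exonic length (kb, log scale) for 32 kinesins, in ICRF-193 and in DMSO, coloured by class. The ratio climbs with length in both groups, up to 1.35 in ICRF-193 and 1.48 in DMSO.

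Partners of the kinesins gave a mixed picture. Of 17 genes that work with mitotic kinesins on the spindle 1 fell (background 1.26%) and 0 rose (background 5.97%). Cenpe (deposited log2 fold change -0.18) was on this list, though it is itself a mitotic kinesin whose symbol lies outside the name rule. All 17 had a negative deposited log2 fold change, with a median of -0.31, and 15 of 17 were negative in limma-voom with total-read scaling. Of genes with a mean of at least 100, 60.5% were negative in the deposited values, with a median of -0.10. In limma-voom with total-read scaling, 5302 of 11726 such genes were negative. Plk1, the polo kinase that docks on Kif20a, had 4629, 5022 and 5258 normalised reads in ICRF-193 libraries A, B and C, against 7906, 9551 and 9483 in DMSO. It fell by 0.85 on the log2 scale in the authors' deposited table (adjusted p = 0.0106). Racgap1, the partner of Kif23 in centralspindlin, had 4694, 4702 and 4993 in ICRF-193, against 6876, 6781 and 6700.1 in DMSO. Its deposited log2 fold change was -0.50 (DESeq adjusted p = 0.246), next to -0.60 for Ect2, which centralspindlin recruits, and -0.45 for Prc1, which bundles the central spindle with Kif4. Limma-voom called 5 of the 17 lower (Plk1, Racgap1, Prc1, Ect2 and Nusap1), and 15 with the split term. The background was 5.88% and 32.4% over all genes tested, and 842 and 4636 of 11726 genes at a mean of at least 100. With total-read scaling limma-voom called 2 of the 17 lower, against 370 of the 11726.

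Of 10 cargo adaptors and light chains 1 fell (background 1.26%) and 0 rose (background 5.97%). Klc2, a light chain that couples conventional kinesin to cargo, had 985, 1056 and 934 normalised reads in ICRF-193 libraries A, B and C, against 1729, 2017 and 1914 in DMSO, and fell by 0.93 on the log2 scale in the authors' deposited table (adjusted p = 0.00507). The other light chains did not pass the deposited test: Klc1, Klc3 and Klc4 had deposited log2 fold changes of 0.03, -0.25 and -0.06. Mapk8ip3, a scaffold for conventional kinesin, was at 0.31 and Kifap3, the non-motor subunit of the Kif3 motor, at -0.21, and neither passed the DESeq test. With the split term limma-voom called 2 of the 10 higher (background 27.2%) and 3 lower (background 32.4%). The higher ones were Mapk8ip3 (limma-voom adjusted p = 0.00825) and Trak2 (0.0119). The lower ones were Klc2 (2.49e-06), Klc3 (0.0162) and Kifap3 (0.00711). Without libraries A limma-voom called 3 higher (background 24.2%), Mapk8ip3 (adjusted p = 0.00188), Trak2 (0.0206) and Trak1 (0.0452). It called 2 lower (background 29.6%), Klc2 (7.16e-06) and Klc3 (0.0441), and not Kifap3 (0.0522). Of 26 genes with reads for dynein and dynactin, the motor that runs the opposite way, 0 passed the DESeq test in the authors' deposited table, 0 were at an unadjusted p under 0.05, and limma-voom called 0 of 25. With the split term 5 were higher (background 27.2%) and 4 lower (background 32.4%), both shares below the background. Among the 23 with an overall mean of at least 100, log2 fold changes lay between -0.28 for Actr1b and 0.38 for Ndel1, with -0.27 for Pafah1b1 and 0.24 for Dctn1, and Dync1h1, the dynein heavy chain, was at 25010 ± 3824 normalised reads in ICRF-193 and 25033 ± 7247 in DMSO (SD, n = 3 each).

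Counting could blur some members. Exons of 13 kinesin genes overlap an exon of a gene on the opposite strand in GENCODE M21, among them Kif2a with Dimt1 and Kif4 with Pdzd11, and no label says whether the kit keeps strand. Kif18b, Kif1a, Kif19a, Kif11 and Kif14 have no such overlap.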

How the data were processed

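RNA-seq of ES cells was deposited as 1 table for both groups. Per the submitters' processing notes, TopHat, HTSeq and DESeq were used with build mm9; versions are not given in the sources used here. The deposited signal columns hold group means of 3 libraries as reads divided by size factors, and the authors' deposited table adds the ratio (fold change), its log2, a p-value and an adjusted p-value.

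Whole reads per library were recovered from the 15 digits of each mean: 18209 of 18759 genes with reads (97.1%) had a single solution, 408 a most likely one (posterior at least 0.99) and 142 none. All kinesins had a single solution except Kif20a, which had 2 in DMSO, 1 of them far more likely. Total reads are partly estimated for the unresolved genes. Recomputed size factors deviated by at most 0.194%. The recovery and fits were tested on simulated data. Limma-voom (limma 3.58.1, R 4.3.3) was fitted to 14885 resolved genes (10 or more reads in 3 or more libraries), over the whole table with Benjamini-Hochberg adjustment, with group alone, with a term for libraries A against B and C, and without both libraries A. Other alternatives were total-read and upper-quartile scaling, no filter on low counts, deposited p-values readjusted over genes with a mean of at least 10, and leaving out each library.

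Library values or means with SD, with the deposited log2 fold change and adjusted p, were given for members past the deposited test. The same was given for Kif11, Kif20a, Kif23 and Kif2c, and for the 4 members of each class with the largest absolute log2 fold change at a mean of at least 100. Of each partner list, members past the test and the 4 largest changes were named; others named there, and markers, were chosen after their values were seen. Members, lists and the recovery were chosen with earlier results of these data known. Exonic lengths come from GENCODE M21, a later build than mm9, and promoters from RefSeq.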

Additional observations from a re-analysis of the deposited data

How the results depend on the processing

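The count of kinesins that were higher, 3 in the deposited test, was 7 in limma-voom with size factors, total-read scaling or upper-quartile scaling, 6 with no filter on low counts, 11 with the split term and 12 without both libraries A. The count of those lower, 0 in the deposited test, was 1 in limma-voom with size factors, upper-quartile scaling or no filter, 0 with total reads, 12 with the split term and 10 without both libraries A. Leaving out each library gave 1 to 8 higher (1 without ICRF-193 B or C or DMSO B or C, 4 without ICRF-193 A, 8 without DMSO A) and 0 to 1 lower. Readjusting the deposited p-values over genes with a mean of at least 10 kept the counts at 3 and 0. Kif18b was higher in every setting run. The mitotic median of -0.16 was -0.02 with total-read scaling and -0.20 to -0.09 leaving out each library; the transport median of 0.07 ranged from -0.07 to 0.34 there. The causes were not tested.

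With total-read scaling Kif20b (0.03), Kif23 (0.01) and Kif4b (0.01) turned positive, and without both libraries A Kif3c was at -0.02. Leaving out each library also turned the sign of Kif13a (-0.15 to 0.23; -0.05 and -0.12 without DMSO B or C), Kif13b (-0.41 to 0.56, with -0.17 and -0.23 there), Kif16b (-0.48 to 0.03), Kif20b (-0.24 to 0.05), Kif21b (-0.37 to 0.06), Kif24 (-0.35 to 0.09), Kif26a (-0.09 to 0.15, with -0.08 without DMSO C), Kif3a (-0.03 to 0.28), Kif3b (-0.15 to 0.37), Kif3c (-0.30 to 0.29), Kif4b (-0.43 to 0.18), Kif5c (-0.06 to 0.32) and Kifc2 (-0.22 to 0.37, with -0.11 without ICRF-193 B). Of the values of single genes over all limma-voom settings, 365 kept their direction and their side of the threshold, 66 became calls, 9 lost the call and 29 changed sign. No paired analysis was possible because the deposited columns carry no replicate number. Kif12, with at most 4 reads in a library, is limited by depth.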
